A study of Mus musculus with 16 samples.

Results

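The Hippo pathway genes and YAP target genes examined here were Ankrd1, Ccn1 (also called Cyr61), Ccn2 (also called Ctgf), Amotl1, Amotl2, Lats1, Lats2, Ajuba, Tead1 and Yap1. They were taken by gene symbol from a list drawn up with earlier results of these data known, and made up 10 of the 55367 gene symbols in the count tables. All 10 passed edgeR's filter on low counts, which left 19509 genes to test. RNA had been sequenced from mIMCD3 cells, a cell line of the mouse inner medullary collecting duct, in 8 groups of 2 libraries each, which the study calls biological replicates. Wild-type (WT) cells received DMSO, the solvent, or 10 µM sulforaphane (SFN), an activator of the transcription factor Nrf2, for 5 h. They were then sampled in isosmotic medium (300 mOsm) or after hyperosmotic medium (600 mOsm) for 1 h or 6 h. Nrf2-/- cells, a line edited with lentiviral Cas9 and a guide and selected with antibiotics, received SFN in every group used here and were sampled in isosmotic medium and after 1 h of stress. The sources used here do not say whether the line came from 1 clone or whether the WT cells carried Cas9. Nrf2-/- cells with DMSO, and Nrf2-/- cells after 6 h, were not analysed here.

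The Hippo pathway is a chain of kinases that ends in LATS1 and LATS2, which phosphorylate the transcriptional coactivator YAP and keep it in the cytoplasm. YAP that escapes phosphorylation enters the nucleus, binds TEAD transcription factors and raises the transcription of genes such as Ccn1, Ccn2 and Ankrd1. Cell contact, cell shape and osmotic stress are among the signals known to feed into the pathway, and several of its inhibitors, LATS2 and AMOTL2 among them, are themselves transcribed under YAP and so form feedback loops.

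Total counts per library lay between 34484296 and 50774875. Levels are given as CPM, the count of a gene scaled by the TMM-normalized size of its library, and a gene was called changed at a Benjamini-Hochberg adjusted p under 0.05 in edgeR's quasi-likelihood test over all genes. Nfe2l2, the gene of Nrf2, was at 11.02 to 11.63 CPM in the Nrf2-/- libraries and at 64.0 to 149 CPM in the WT libraries. Nqo1, a target gene of Nrf2, reached at most 0.255 CPM in Nrf2-/- cells, beside 5.05 to 7.38 in WT cells with SFN, and the osmotic stress genes Slc5a3 and Akr1b3 went from 49.4 and 46.7 and from 340.0 and 379.7 CPM in isosmotic DMSO-treated cells to 978 and 872 and to 5496 and 5716 after 6 h. Of 14 markers of collecting duct epithelium, 12 exceeded 1 CPM on average in every WT group and 10 in the Nrf2-/- groups, while the water channel genes Aqp2 and Aqp3, which define principal cells, were below 1 CPM in every library. Sums of markers given here were scaled by total counts alone, without TMM, unlike the levels of single genes. The summed level of those 14 markers was 4138 to 4426 CPM after 6 h and 2338 to 3858 CPM in the other groups, and single markers moved in both directions. With DMSO, 7 of the 14 were higher and 2 lower after 6 h than in isosmotic cells, against 23.9% and 22.0% of all genes tested. Among the higher ones were Pax2 (119 to 1141 CPM) and Pax8 (96.6 to 722 CPM). Markers of other cell types were low: 3 immune markers summed to 8.27 to 11.9 CPM after 6 h and 2.06 to 7.31 CPM elsewhere, and 3 endothelial markers to 3.64 to 4.86 CPM after 6 h and 0.0496 to 0.868 CPM elsewhere. Fibroblast markers summed to 2.11 to 6.65 CPM in all groups, and 3 markers of proximal tubule to 5.52 to 12.6 CPM in WT and 0.0558 to 0.602 CPM in Nrf2-/- cells. The part of these markers in the results below was not tested. The 2 libraries of Nrf2-/- cells after 1 h stood apart. The biological coefficient of variation was 0.305 between them, against 0.0384 to 0.120 in the other 7 groups. Differences called between the lines at 1 h are therefore given with and without each library. For other results that rest on these libraries, mainly the number of genes called is given so.

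Because several of these genes are known to be bound by TEAD factors, the 250 bases before the RefSeq transcription start (GRCm38.p6, the assembly of the files' mm10) were read for 8 of the 10 genes; the table used held no entry for Ccn2 and Tead1. The TEAD core GGAATG, searched on both strands, occurred in 5 of the 8 genes (Ankrd1, Ccn1, Amotl2, Ajuba and Yap1) and in 12.6% of the 32851 mouse promoters of the table. The antioxidant response element core TGACNNNGC, the kind of site bound by Nrf2, occurred in 2 of the 8 (Ankrd1 and Ccn1) and in 10.2% of promoters. TGGAAA, the core bound by the osmotic stress factor NFAT5, occurred in 2 of the 8 (Ccn1 and the second of 2 windows of Lats2) and in 18.6% of promoters. No match overlapped another in these windows, and a match is a string of letters, not a measured binding site. Below are the windows of the 4 genes that both held the TEAD core and changed under stress, 5′ to 3′ in the direction of transcription, with the core or its reverse complement CATTCC in capitals. Ankrd1 held 2 cores at chr19:36119845-36120094 on the minus strand, a window that GENCODE M21 draws inside the gene because it annotates an earlier start. Ccn1 held 1 at chr3:145649986-145650235 on the minus strand, just upstream of the gene. Amotl2 held 1 at chr9:102717554-102717803 on the plus strand, also inside the gene in GENCODE M21, and Ajuba held 2 at chr14:54577662-54577911 on the minus strand, upstream of the gene.
Ankrd1: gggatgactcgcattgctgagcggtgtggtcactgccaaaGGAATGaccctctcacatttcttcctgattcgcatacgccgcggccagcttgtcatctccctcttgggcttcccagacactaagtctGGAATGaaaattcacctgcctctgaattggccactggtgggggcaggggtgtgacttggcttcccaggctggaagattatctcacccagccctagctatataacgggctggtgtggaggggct
Ccn1: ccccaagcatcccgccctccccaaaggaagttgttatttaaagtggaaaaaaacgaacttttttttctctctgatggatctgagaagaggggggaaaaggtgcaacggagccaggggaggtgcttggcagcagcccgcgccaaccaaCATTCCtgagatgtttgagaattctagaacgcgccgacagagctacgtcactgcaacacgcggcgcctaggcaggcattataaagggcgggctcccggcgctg
Amotl2: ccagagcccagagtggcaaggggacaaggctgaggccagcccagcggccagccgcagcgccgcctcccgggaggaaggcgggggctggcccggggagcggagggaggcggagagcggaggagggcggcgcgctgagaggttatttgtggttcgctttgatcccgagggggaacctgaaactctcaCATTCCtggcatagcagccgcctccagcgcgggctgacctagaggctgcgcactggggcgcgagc
Ajuba: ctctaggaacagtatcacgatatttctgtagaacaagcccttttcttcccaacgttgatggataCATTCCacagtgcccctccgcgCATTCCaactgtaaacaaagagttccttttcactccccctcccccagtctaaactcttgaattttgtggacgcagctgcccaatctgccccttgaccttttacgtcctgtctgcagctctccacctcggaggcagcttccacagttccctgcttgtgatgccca

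In GRCm38 with the GENCODE M21 annotation, Ankrd1 lies at chr19:36111961-36120099, Ccn1 at chr3:145646976-145649981 and Ccn2 at chr10:24595442-24598683. Amotl2 lies at chr9:102716672-102733418, Amotl1 at chr9:14541966-14645056 and Yap1 at chr9:7931999-8004596 on the same chromosome, Lats2 at chr14:57689662-57758388 and Ajuba at chr14:54567472-54577558 on another, Lats1 at chr10:7681214-7716460 and Tead1 at chr7:112679318-112906807. They differed widely in abundance. Per kb of exon, Ccn1 had the highest mean in each of the 8 groups. Over the 16 libraries it was at 284 to 1150.5 CPM per kb, Ankrd1 at 143 to 524 and Ccn2 at 69.3 to 299. Ajuba, which encodes a LIM scaffold protein that restrains LATS kinases, was at 56.1 to 170.2 CPM per kb, and Amotl2, which encodes an angiomotin that binds and retains YAP, at 50.98 to 96.2. Tead1, the DNA-binding partner of YAP, was at 16.4 to 52.3 CPM per kb. The order changed with stress, and in DMSO-treated cells after 6 h the mean of Ajuba, 168 CPM per kb, lay above those of Ankrd1, 145, and Ccn2, 69.4. Over all libraries the lowest ranges on this scale were those of Amotl1 at 9.94 to 28.1, Lats1 at 11.8 to 27.7, Yap1 at 13.4 to 25.2 and Lats2 at 5.18 to 18.4. Yap1 and Amotl2 varied least, with the highest library 1.88-fold and 1.89-fold above the lowest, and Ccn2 varied most, 4.31-fold.

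**Figure D1:**
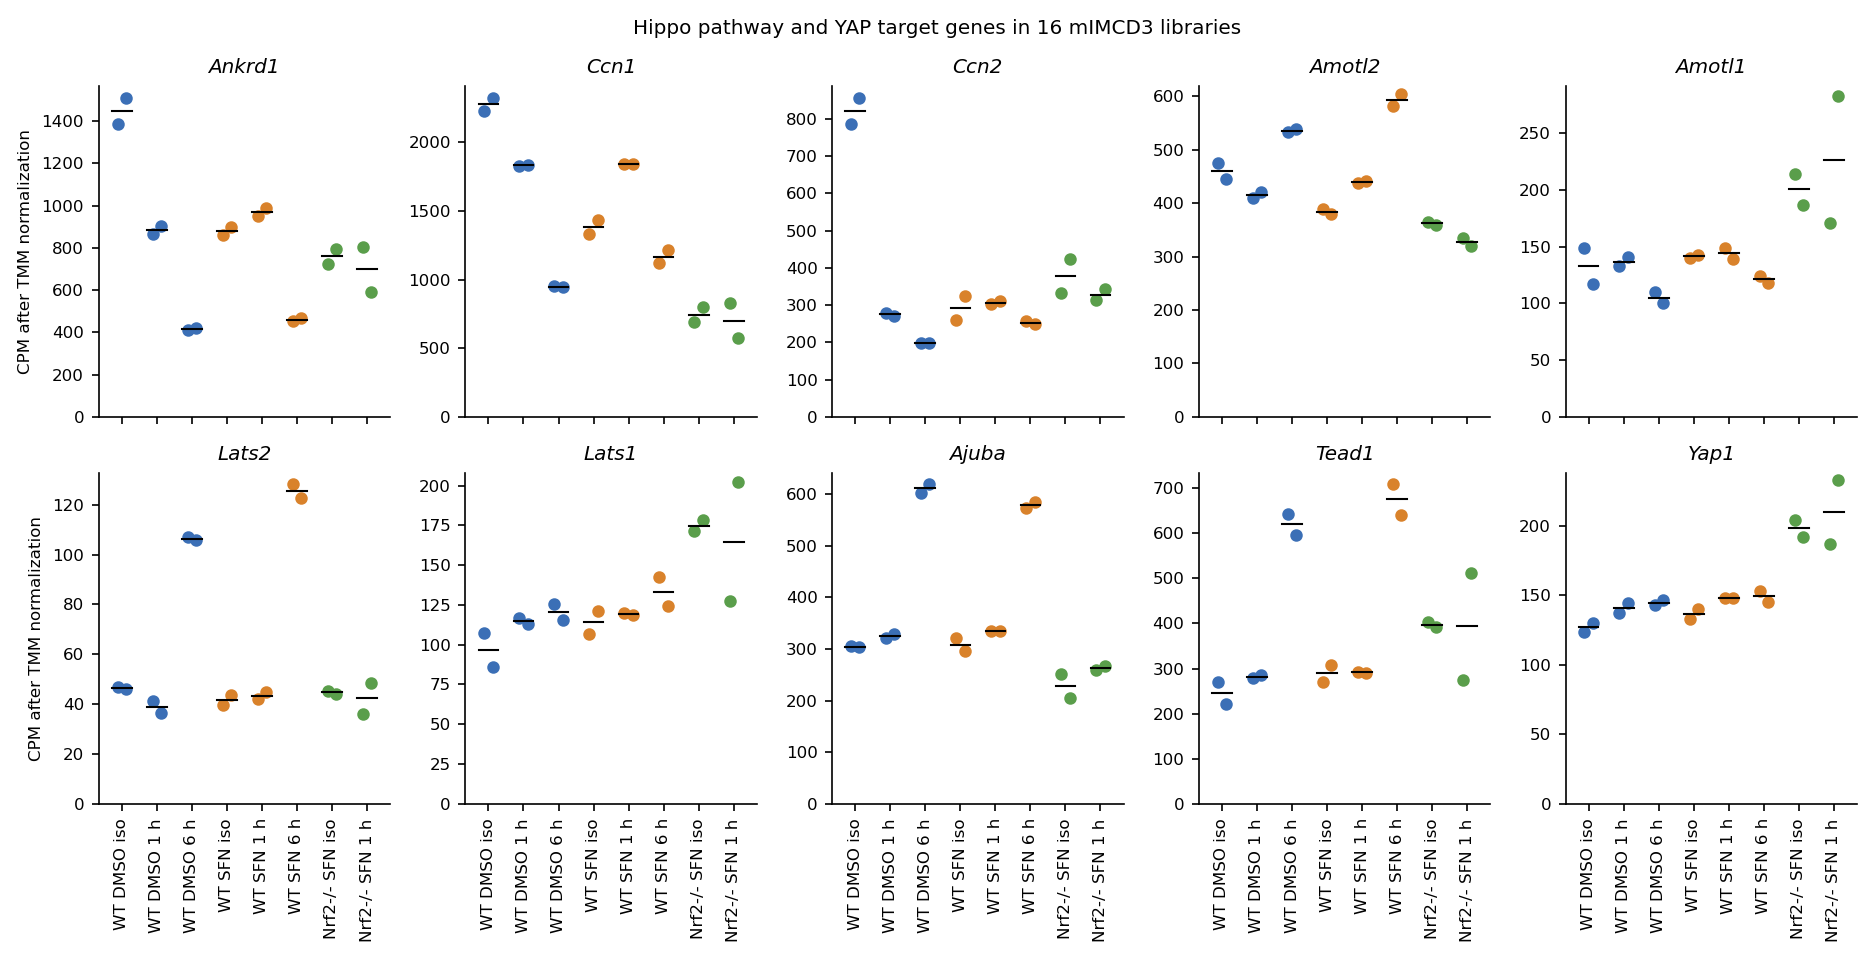
CPM after TMM normalization (y axis, from 0) of each gene in each of the 16 libraries (points) of the 8 groups (x axis; iso, isosmotic), with the group mean as a line. Ankrd1, Ccn1 and Ccn2 were highest in both WT DMSO isosmotic libraries, while Lats2, Ajuba and Tead1 stood highest in the 4 libraries of 6 h of stress.

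The comparison of stressed with unstressed DMSO-treated WT cells asks how hyperosmolality acts without the activator. The 3 genes commonly used as readouts of YAP and TEAD fell under stress, and 4 genes of the pathway itself rose by 6 h. Ccn2, which encodes a secreted matrix-associated growth regulator, was at 785 and 855 CPM in the isosmotic libraries, 279 and 272 after 1 h and 198 and 199 after 6 h. Each later time was lower than the one before, with no overlap between groups. It fell by 1 h (log2 fold change -1.57, SE 0.13, edgeR adjusted p = 2.69e-06) and further by 6 h (log2 fold change -2.05, SE 0.13, edgeR adjusted p = 2.30e-08). Ankrd1, which encodes an ankyrin repeat protein of the nucleus and sarcomere, was at 1387 and 1512 CPM in isosmotic cells, 866 and 906 after 1 h and 412 and 422 after 6 h. These groups did not overlap either. Ankrd1 fell at 1 h (log2 fold change -0.71, SE 0.12, edgeR adjusted p = 0.00175) and at 6 h (log2 fold change -1.80, SE 0.13, edgeR adjusted p = 6.40e-08). Ccn1, the paralog of Ccn2, was at 2231 and 2323 CPM in isosmotic cells, 1829 and 1838 after 1 h and 949.6 and 946 after 6 h. Its groups did not overlap, but the 1 h difference missed the threshold (log2 fold change -0.31, SE 0.14, edgeR adjusted p = 0.179; 95% confidence interval -0.61 to -0.02). It passed without the filter on low counts (edgeR adjusted p = 0.0362), in a fit of the 4 libraries compared (edgeR adjusted p = 0.00954) and in a fit of the 12 WT libraries (edgeR adjusted p = 0.000856). At 6 h Ccn1 fell (log2 fold change -1.26, SE 0.14, edgeR adjusted p = 4.64e-06). In bulk RNA, less RNA per cell and fewer cells holding it cannot be told apart. In the series description, RNA of unstressed cells was taken after the 5 h of treatment and that of stressed cells after a further replacement by hypertonic medium, so that medium change and time cannot be told apart from osmolality in these comparisons. Comparing 6 h with 1 h, where both groups had received hypertonic medium, Ankrd1 (log2 fold change -1.09, SE 0.12, edgeR adjusted p = 6.38e-06), Ccn1 (log2 fold change -0.95, SE 0.14, edgeR adjusted p = 6.07e-05) and Ccn2 (log2 fold change -0.47, SE 0.12, edgeR adjusted p = 0.00674) were again lower at 6 h.

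Among the regulators, the kinase gene Lats2 was at 46.9 and 46.0 CPM in isosmotic DMSO-treated cells, 41.1 and 36.5 after 1 h and 107 and 106 after 6 h. Both 6 h libraries lay above all isosmotic and 1 h libraries of the series. Lats2 rose at 6 h (log2 fold change 1.19, SE 0.12, edgeR adjusted p = 2.49e-06), whereas its value at 1 h was -0.26 (95% confidence interval -0.52 to 0.00). Tead1 was at 269.9 and 222 CPM in isosmotic cells, 278 and 285 after 1 h and 644 and 596 after 6 h. Of these DMSO libraries only the 6 h ones stood clear of the rest, and Tead1 rose (log2 fold change 1.33, SE 0.20, edgeR adjusted p = 0.000107). Ajuba was at 305 and 303 CPM in isosmotic cells, 320.2 and 329 after 1 h and 603 and 621 after 6 h. The 6 h level was 2.01-fold that of isosmotic cells (log2 fold change 1.01, SE 0.10, edgeR adjusted p = 1.86e-06). Amotl2 was at 474 and 446 CPM in isosmotic cells, 410.3 and 421 after 1 h and 532 and 539 after 6 h. Its 6 h difference was small (log2 fold change 0.22, SE 0.08, edgeR adjusted p = 0.0434) and lost its call without the filter on low counts, with a replicate block and in 14 of 16 fits that left out 1 library, but its rise from 1 h to 6 h was called in each of these fits (log2 fold change 0.37, SE 0.08, edgeR adjusted p = 0.00248).

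Amotl1, Lats1 and Yap1 were not called at either time. Yap1 itself was at 124 and 130.0 CPM in isosmotic cells, 137 and 144 after 1 h and 143 and 147 after 6 h. Its stressed libraries lay slightly above both isosmotic ones, with a 95% confidence interval of -0.03 to 0.41 for the log2 fold change at 6 h. For Lats1 that interval was -0.04 to 0.68, and for Amotl1 -0.72 to 0.04. In all, 2 of 10 genes fell and 0 rose at 1 h, where 4.11% of all genes tested fell and 7.10% rose. Without the Nrf2-/- libraries in the fit, or without either of those of 1 h, the count that fell was 4, with Ccn1 and Lats2 added, and it was 3 without the filter or with only the libraries compared. At 6 h, 4 rose and 3 fell, where 23.9% of all genes rose and 22.0% fell. From 1 h to 6 h, 4 rose and 3 fell, against 20.4% and 22.0% of all genes. The median log2 fold change of the 10 was -0.05, beside 0.00 over all genes tested, at 1 h and 0.20, beside 0.05 over all genes tested, at 6 h. The libraries of the 2 groups did not overlap for 9 of 10 genes at 1 h and 10 of 10 at 6 h, as they did not for 60.9% and 75.6% of all genes. The genes thus did not move as 1 group under stress.

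**Figure D2:**
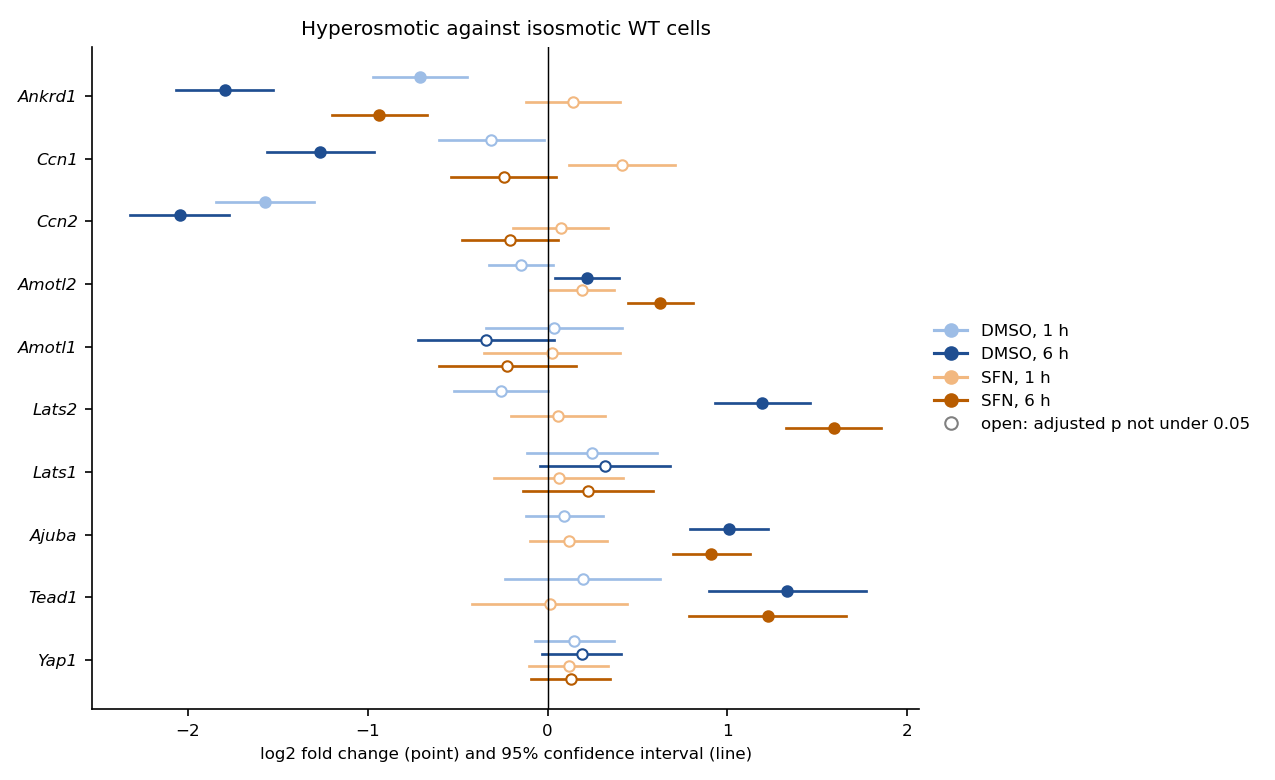
Log2 fold change (x axis) of each gene (y axis) in WT cells after 1 h or 6 h of hyperosmotic stress against isosmotic cells, with DMSO (blue) or SFN (orange); lines are 95% confidence intervals and open points missed the threshold. Ankrd1 and Ccn2 lay far lower with DMSO than with SFN at both times, and Lats2, Ajuba and Tead1 lay near or above 1 at 6 h with either pretreatment.

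The balance between paralogs also differed between groups. Per length, Lats2 stood at 0.458 and 0.559 of the level of Lats1 in the isosmotic DMSO libraries, at 0.339 and 0.369 after 1 h and at 0.890 and 0.958 after 6 h. With SFN the same ratio was 0.375 and 0.390 in isosmotic cells, 0.368 and 0.394 after 1 h and 0.942 and 1.03 after 6 h. The 4 libraries of 6 h lay between 0.890 and 1.03, and the other 12 libraries at 0.559 or below. Amotl2 stood at 5.09 and 6.07 times the level of Amotl1 per length in isosmotic DMSO libraries, at 4.78 and 4.94 times after 1 h and 7.73 and 8.62 times after 6 h. In isosmotic Nrf2-/- cells this ratio was 2.73 and 3.08, below all WT libraries. Ccn1 stood at 3.85 and 4.03 times the level of Ccn2 per length in isosmotic DMSO libraries, at 9.28 and 9.58 times after 1 h and at 6.74 and 6.79 times after 6 h. In isosmotic SFN libraries it stood at 6.30 and 7.25 times. These ratios were described and not tested. Amotl1, Lats2 and Tead1 overlap other annotated genes on their own strand and Ccn2 and Yap1 on the opposite strand, and the sources used here do not give the strand setting of the counting, so that shared reads are possible for these genes.

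In SFN-treated WT cells Lats2, Tead1, Ajuba and Amotl2 rose at 6 h, Ankrd1 fell, and Amotl1, Lats1, Yap1, Ccn1 and Ccn2 were not called. Lats2 was at 39.8 and 43.5 CPM in isosmotic cells and 128 and 123 after 6 h (log2 fold change 1.59, SE 0.12, edgeR adjusted p = 1.58e-07). Tead1 was at 269 and 309 CPM in isosmotic cells and 710.0 and 641 after 6 h (log2 fold change 1.22, SE 0.20, edgeR adjusted p = 0.000206). The values of neither gene overlapped between these groups, as those of 76.3% of all genes did not. Ajuba (log2 fold change 0.91, SE 0.10, edgeR adjusted p = 4.46e-06) and Amotl2 (log2 fold change 0.63, SE 0.08, edgeR adjusted p = 2.53e-05) rose as well. Of the target genes, Ankrd1 was at 862 and 898 CPM in isosmotic cells, 949.7 and 991 after 1 h and 453 and 468 after 6 h. Its 1 h libraries lay above the isosmotic ones, and it fell by 6 h (log2 fold change -0.94, SE 0.12, edgeR adjusted p = 2.33e-05). Ccn2 was at 259.9 and 323 CPM in isosmotic cells, 303 and 310.2 after 1 h and 256 and 248 after 6 h. It was called at neither time, with 95% confidence intervals of the log2 fold change of -0.19 to 0.34 and -0.47 to 0.06. Ccn1 was at 1329.8 and 1436 CPM in isosmotic cells, 1841 and 1845 after 1 h and 1121 and 1213 after 6 h. Its 1 h libraries were the higher ones, but the difference missed the threshold (log2 fold change 0.41, SE 0.14, edgeR adjusted p = 0.0753), which it passed in fits without the Nrf2-/- libraries, without the filter on low counts, of the libraries compared alone or with DESeq2. At 1 h, 0 of 10 genes were called by edgeR, 2 had an unadjusted p under 0.05 and 2 were called by DESeq2 (Ccn1 and Amotl2), against 9.52% of all genes called by edgeR. At 6 h, 4 rose and 1 fell, against 24.7% and 22.9% of all genes, and the median log2 fold change was 0.18, beside 0.09 over all genes tested. Without the Nrf2-/- libraries in the fit 9 of 10 passed, and without either of those of 1 h, 8 passed. From 1 h to 6 h, 4 rose and 2 fell (Ankrd1 and Ccn1), against 20.9% and 21.7% of all genes. These shares of all genes come from the fit of all 16 libraries and not from the other fits.

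SFN against DMSO at each time asks what the activator did on its own and under stress. Without stress, the same 3 target genes that fell under stress were lower with SFN. Ankrd1 was at 1387 and 1512 CPM in the DMSO libraries and 862 and 898 in the SFN libraries (log2 fold change -0.72, SE 0.12, edgeR adjusted p = 0.00422). Ccn1 was at 2231 and 2323 CPM in the DMSO libraries and 1329.8 and 1436 in the SFN libraries (log2 fold change -0.72, SE 0.14, edgeR adjusted p = 0.00960). Ccn2 was at 785 and 855 CPM in the DMSO libraries and 259.9 and 323 in the SFN libraries (log2 fold change -1.49, SE 0.13, edgeR adjusted p = 1.05e-05). None of the 3 overlapped between the groups, as 48.3% of all genes did not, and both DMSO libraries were the higher ones. The other 7 genes were not called, with log2 fold changes from -0.26 (Amotl2) to 0.24 (Lats1) and confidence intervals reaching from -0.44 to 0.66. Thus 3 of 10 were lower, against 1.76% of all genes, and 0 were higher, against 1.09%. This comparison shares its DMSO libraries with both DMSO stress comparisons and with the interactions below, so that 1 pair of libraries with high values enters all of them. Ankrd1 and Ccn1 lost their call without WT DMSO isosmotic replicate 2 or WT SFN isosmotic replicate 1, which left 1 gene called, and Ccn1 also without WT SFN isosmotic replicate 2. Over all fits the log2 fold changes stayed between -0.78 and -0.66 for Ankrd1 and between -0.78 and -0.66 for Ccn1, and Ccn2 was called in every fit.

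Under stress, no gene of the 10 was called for SFN against DMSO. After 1 h, Ccn2 was at 279 and 272 CPM with DMSO and 303 and 310.2 with SFN, and Ankrd1 was at 866 and 906 CPM with DMSO and 949.7 and 991 with SFN. Both SFN libraries were the higher ones for each gene, yet edgeR called 0 of 10 genes, 0 had an unadjusted p under 0.05, and 0.0923% of all genes were called. The log2 fold changes ran from 0.01 (Ccn1) to 0.16 (Lats2), with confidence intervals reaching from -0.38 to 0.48. In a fit of the 4 libraries of 1 h alone, Ankrd1 and Ccn2 passed the threshold. After 6 h, Ccn2 was at 198 and 199 CPM with DMSO and 256 and 248 with SFN, and Ccn1 was at 949.6 and 946 CPM with DMSO and 1121 and 1213 with SFN. The SFN libraries were again the higher ones. Here edgeR called 0 of 10, 2 had an unadjusted p under 0.05 (Ccn1 and Ccn2), and 0.0410% of all genes were called. The confidence intervals were 0.08 to 0.61 for Ccn2 and 0.01 to 0.59 for Ccn1, and in a fit of the 4 libraries of 6 h alone these 2 genes passed. DESeq2 called 0 of 10 at both times.

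The difference between the stress responses was tested as an interaction. A positive value means that the log2 fold change of stress against isosmotic cells was higher with SFN than with DMSO. For Ccn2 it was 1.65 at 1 h (SE 0.18, edgeR adjusted p = 0.000447) and 1.84 at 6 h (SE 0.18, edgeR adjusted p = 9.10e-05). For Ankrd1 it was 0.85 at 1 h (SE 0.17, edgeR adjusted p = 0.0406) and 0.86 at 6 h (SE 0.17, edgeR adjusted p = 0.0302). For Ccn1 it was 0.73 at 1 h, which missed the threshold (edgeR adjusted p = 0.177), and 1.02 at 6 h (SE 0.19, edgeR adjusted p = 0.0210). Ankrd1 was no longer called at either time with a replicate block, and over the 16 fits that each left out 1 library it was called in 2 at 1 h and 4 at 6 h, with values between 0.79 and 0.92 in all fits. Ccn1 was called at 6 h in 8 of the 16, and not without any 1 of the 8 libraries that enter the interaction. Ccn2 was called in every fit. In all, 2 of 10 were called at 1 h and 3 at 6 h, all positive, against 0.487% and 0.595% of all genes. The count at 1 h was 4 without the Nrf2-/- libraries or with DESeq2. The other 7 genes, called at neither time, had interactions from -0.19 (Lats1, 1 h) to 0.41 (Amotl2, 6 h). Each interaction contains the same difference between isosmotic SFN and DMSO libraries that was described above. 

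**Figure D3:**
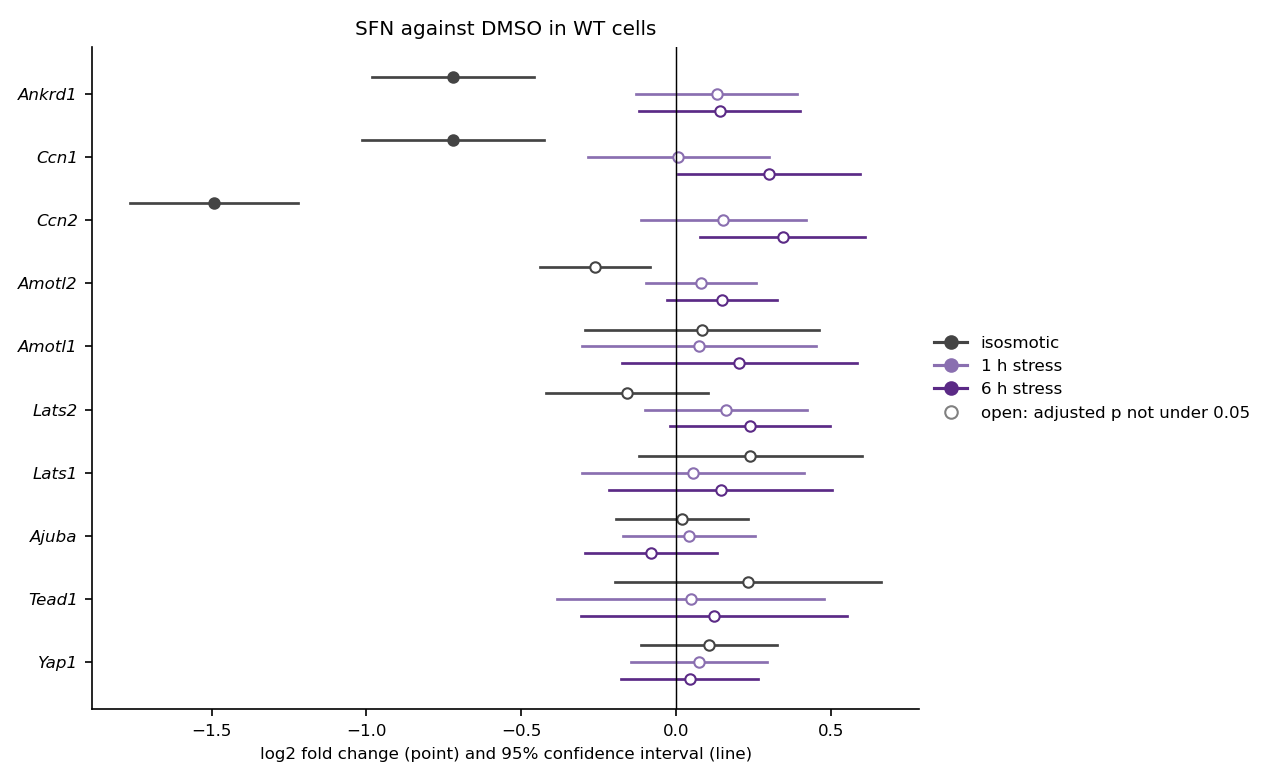
Log2 fold change (x axis) with 95% confidence interval (lines) of SFN against DMSO in WT cells for each gene (y axis), without stress (grey) and after 1 h and 6 h of stress (purple); open points missed the threshold. Ankrd1, Ccn1 and Ccn2 lay below 0 in isosmotic cells and between 0.01 and 0.35 under stress.

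Nrf2-/- cells were compared with WT cells at the same time, both with SFN, which asks what differed between the lines when the activator was present. In isosmotic medium, Ccn1 was at 1329.8 and 1436 CPM in WT and 690.1 and 800.1 in Nrf2-/- cells. The groups lay far apart, and Ccn1 was lower in Nrf2-/- cells (log2 fold change -0.89, SE 0.14, edgeR adjusted p = 0.000148). Ccn2 was at 259.9 and 323 CPM in WT and 331 and 424 in Nrf2-/- cells, higher in the latter (log2 fold change 0.37, SE 0.12, edgeR adjusted p = 0.0305). Its groups did not overlap, but the gap between them was narrow. Ankrd1 was at 862 and 898 CPM in WT and 726 and 794 in Nrf2-/- cells and was not called (95% confidence interval -0.47 to 0.05). Yap1 was at 133 and 140.2 CPM in WT and 204 and 192 in Nrf2-/- cells (log2 fold change 0.54, SE 0.10, edgeR adjusted p = 0.000937), and Lats1 was at 107 and 121 CPM in WT and 171 and 179 in Nrf2-/- cells (log2 fold change 0.62, SE 0.17, edgeR adjusted p = 0.0107). Both were higher in Nrf2-/- cells without overlap, which held for 66.2% of all genes in either direction. Amotl1 was higher as well (log2 fold change 0.50, SE 0.18, edgeR adjusted p = 0.0394) and Ajuba lower (log2 fold change -0.44, SE 0.10, edgeR adjusted p = 0.00337). In all, 4 of 10 were higher and 2 lower, against 15.7% and 18.4% of all genes, with a median log2 fold change of 0.24, beside 0.00 over all genes tested. The count fell to 2 without Nrf2-/- SFN isosmotic replicate 2, when Ccn1 and Yap1 alone stayed called, and to 3 without WT SFN isosmotic replicate 1. The weakest was Amotl1, called in 4 of 16 fits that left out 1 library and not with a replicate block. Ccn2 lay between 0.18 and 0.54 over all fits, and lost its call without either of those 2 libraries or without WT SFN 1 h replicate 1. Tead1 was at 269 and 309 CPM in WT and 403 and 391 in Nrf2-/- cells, with no overlap, and missed the threshold (log2 fold change 0.46, SE 0.20, edgeR adjusted p = 0.0962). It passed without the filter on low counts, with only the libraries compared and without either Nrf2-/- library of 1 h, and the count was up to 8 over the fits that left out 1 library. Of the 14 epithelial markers, 3 were higher and 6 lower in Nrf2-/- cells in this comparison, among them Krt7 (180.2 CPM in WT and 904 in Nrf2-/- cells), Epcam (48.8 and 284), Cdh16 (200.4 and 20.5) and Pax2 (142 and 26.9). Their part in the differences between the lines was not tested.

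After 1 h of stress, Ccn1 was at 1841 and 1845 CPM in WT and 829.5 and 573 in Nrf2-/- cells (log2 fold change -1.39, SE 0.14, edgeR adjusted p = 2.56e-06). The log2 fold change was -1.67 without Nrf2-/- SFN 1 h replicate 1 and -1.15 without replicate 2, and Ccn1 was called in every fit. Yap1 was at 148 and 148 CPM in WT and 187 and 233 in Nrf2-/- cells (log2 fold change 0.50, SE 0.10, edgeR adjusted p = 0.00171), with 0.66 and 0.34 without each of the 2 libraries. Both genes kept the direction they had without stress. Amotl2 was at 438 and 441 CPM in WT and 335 and 321 in Nrf2-/- cells (log2 fold change -0.42, SE 0.08, edgeR adjusted p = 0.00125), and Ajuba was at 334 and 334 CPM in WT and 260.0 and 267 in Nrf2-/- cells (log2 fold change -0.34, SE 0.10, edgeR adjusted p = 0.0168). For Amotl2 the values without each library were -0.44 and -0.39, and for Ajuba -0.31 and -0.36. These 2 genes, lower in Nrf2-/- cells, were close in the 2 Nrf2-/- libraries. The remaining calls depended more on 1 library. Ankrd1 (log2 fold change -0.47, SE 0.12, edgeR adjusted p = 0.00820) went from -0.70 to -0.27 without replicate 1 or 2. Amotl1 (log2 fold change 0.65, SE 0.18, edgeR adjusted p = 0.0111) went from 0.98 to 0.25 and lost its call without replicate 2. Lats1 (log2 fold change 0.47, SE 0.17, edgeR adjusted p = 0.0468) went from 0.78 to 0.10 and was called in 3 of 16 fits that left out 1 library. Tead1, at 292 and 291 CPM in WT and 274 and 512 in Nrf2-/- cells, was not called (log2 fold change 0.43, SE 0.20, edgeR adjusted p = 0.121) and changed sign between 0.83 and -0.088. In all, 3 of 10 were higher and 4 lower, against 15.3% and 16.2% of all genes. In a fit of the 4 libraries compared alone, Ccn1 was the 1 gene called, and the count fell to 3 without WT SFN 1 h replicate 2.

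Within Nrf2-/- cells, 1 h of stress against isosmotic medium gave 0 called genes of 10, with 0 at an unadjusted p under 0.05 and 0 by DESeq2, where 7.17% of all genes were called by edgeR. The confidence intervals of the log2 fold change were -0.47 to 0.06 for Ccn2, -0.38 to 0.21 for Ccn1 and -0.38 to 0.14 for Ankrd1. Without Nrf2-/- SFN 1 h replicate 1 or 2 the count was 4 or 3. The interaction of genotype and 1 h stress was called for 0 of 10 genes by edgeR (2 at an unadjusted p under 0.05, Ccn1 and Amotl2) and 1 by DESeq2, against 0.123% of all genes. It was 4 or 2 without Nrf2-/- SFN 1 h replicate 1 or 2. For Ccn1 the interaction was -0.50 (95% confidence interval -0.92 to -0.087). The confidence intervals of this paragraph are from the fit of all libraries alone. For Amotl2 the interaction was -0.34 in that fit. It was -0.37 without Nrf2-/- SFN 1 h replicate 1 and -0.30 without replicate 2.

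**Figure D4:**
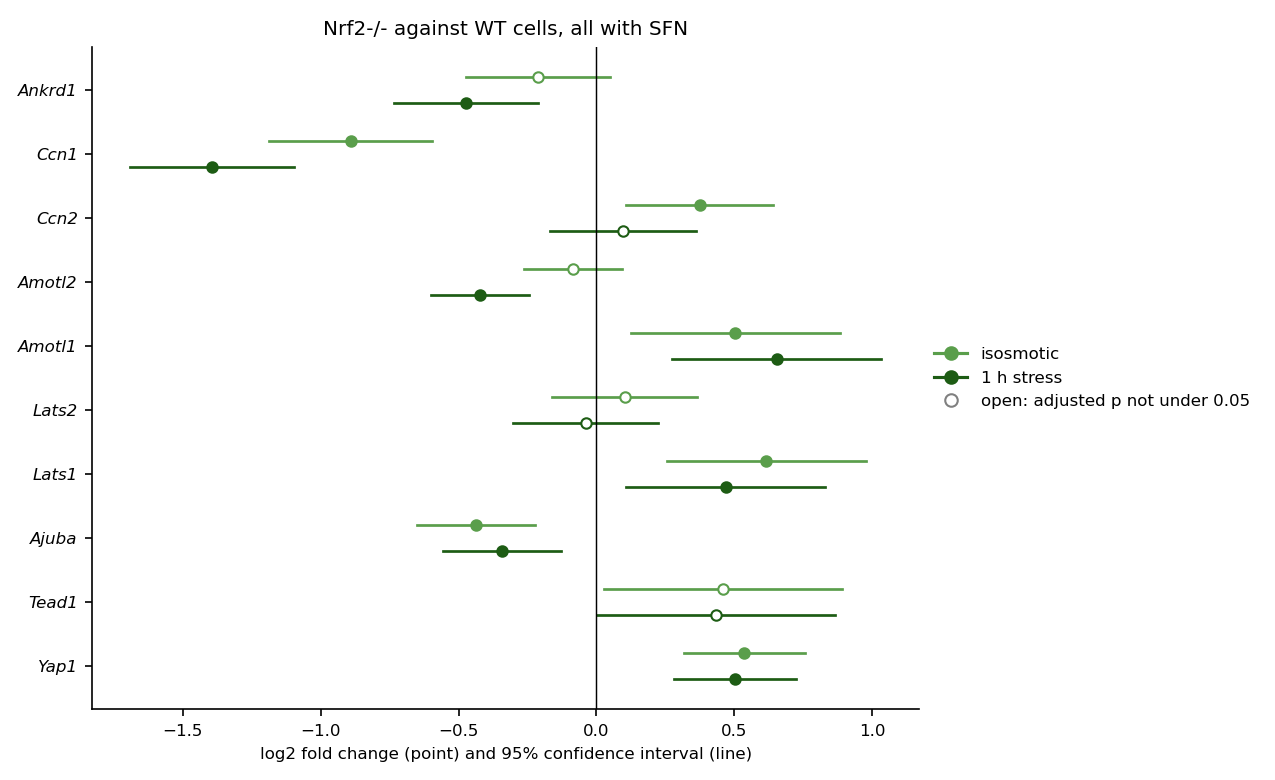
Log2 fold change (x axis) with 95% confidence interval (lines) of Nrf2-/- against WT cells, all with SFN, for each gene (y axis), without stress (light green) and after 1 h of stress (dark green); open points missed the threshold. Ccn1 lay lowest at both times, at -0.89 and -1.39, and Yap1, Lats1 and Amotl1 lay above 0 at both.

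Other genes of the pathway were taken from a list of 17 further YAP target genes, 16 of which passed the filter on low counts, and a list of 28 further Hippo pathway genes, all of which passed. With DMSO, 1 of the 16 target genes rose and 3 fell at 1 h, and 6 rose and 3 fell at 6 h. Of all genes tested 7.10% rose and 4.11% fell at 1 h, and 23.9% rose and 22.0% fell at 6 h. The median log2 fold change at 6 h was 0.43, beside 0.05 over all genes tested. F3, the gene of tissue factor, was at 466 and 459.9 CPM in isosmotic cells, 188 and 183 after 1 h and 117 and 113 after 6 h, with no overlap between groups. It fell at 1 h (log2 fold change -1.32, SE 0.10, edgeR adjusted p = 1.75e-06) and at 6 h (log2 fold change -2.01, SE 0.10, edgeR adjusted p = 3.41e-09). In isosmotic cells with SFN it was at 157 and 157 CPM (log2 fold change -1.56, SE 0.10, edgeR adjusted p = 1.26e-06). Its interaction of SFN and stress was 1.65 at 1 h (edgeR adjusted p = 6.86e-05) and 1.81 at 6 h (edgeR adjusted p = 2.76e-05). Nuak2, which encodes an AMPK-related kinase, fell at 1 h (-1.09) and at 6 h (-0.99) on the log2 scale. It was lower with SFN in isosmotic cells (log2 fold change -0.77, SE 0.12, edgeR adjusted p = 0.00221), with interactions of 0.82 and 0.81 that were both called. F3 and Nuak2 were the 2 target genes of the 16 called for SFN without stress. Target genes that rose at 6 h included Crim1 (1.43), which encodes a membrane-bound regulator of growth factors, Tgfb2 (1.42), a growth factor gene, and the membrane repair gene Myof (0.77). Dock5 (0.55), Fjx1 (1.93) and Foxf2 (3.22) rose too, and Rbms3 fell (-1.97) from 61 and 46 counts to 13 and 8. At 1 h, Fjx1 fell (-0.90) and Arhgef17 rose (0.43).

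Of the 28 other Hippo pathway genes, 3 rose and 0 fell at 1 h, and 15 rose and 3 fell at 6 h, where the median log2 fold change was 0.42, beside 0.05 over all genes tested. The shares over all genes were the 7.10% and 4.11% at 1 h and 23.9% and 22.0% at 6 h given above. With SFN, 15 rose and 6 fell at 6 h, against 24.7% and 22.9% of all genes. SFN against DMSO called 0 of the 28 at each time by edgeR, where 4, 2 and 1 had an unadjusted p under 0.05 without stress, at 1 h and at 6 h. Of all genes tested, 1.09% were higher and 1.76% lower without stress, and 0.0923% and 0.0410% were called at 1 h and 6 h. Between Nrf2-/- and WT cells, 9 were higher and 7 lower in Nrf2-/- cells without stress, as were 5 and 6 of the 16 target genes, against 15.7% and 18.4% of all genes. The genes that rose at 6 h included 2 further TEAD factors. Tead4 went from 76.0 and 58.9 CPM in isosmotic cells to 260.0 and 249 after 6 h (log2 fold change 1.92, SE 0.12, edgeR adjusted p = 2.27e-08), and Tead3 from 16.7 and 19.8 to 45.4 and 50.02 CPM (log2 fold change 1.39, SE 0.19, edgeR adjusted p = 3.88e-05). The cofactors of TEAD factors Vgll3 (1.99) and Vgll4 (1.15), the latter a repressor that competes with YAP, rose as well. Of the 2 genes of the upstream MST kinases, Stk4 rose from 124 and 108 to 300.4 and 300.1 CPM (1.37) and Stk3 fell from 45.7 and 46.8 to 21.7 and 19.9 CPM (-1.15). The 2 paralogs lay in opposite directions without overlap between the groups. Wwc1 (0.86) and Wwc2 (0.96), which encode scaffold proteins that promote LATS activity, rose. Ndrg1 (1.52), counted in the list but not a core gene of the pathway, rose too. Fat4, an atypical cadherin gene, had 6 and 7 counts in the isosmotic libraries, 38 and 19 after 1 h and 188 and 102 after 6 h, and was called at both times.

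**Figure D5:**
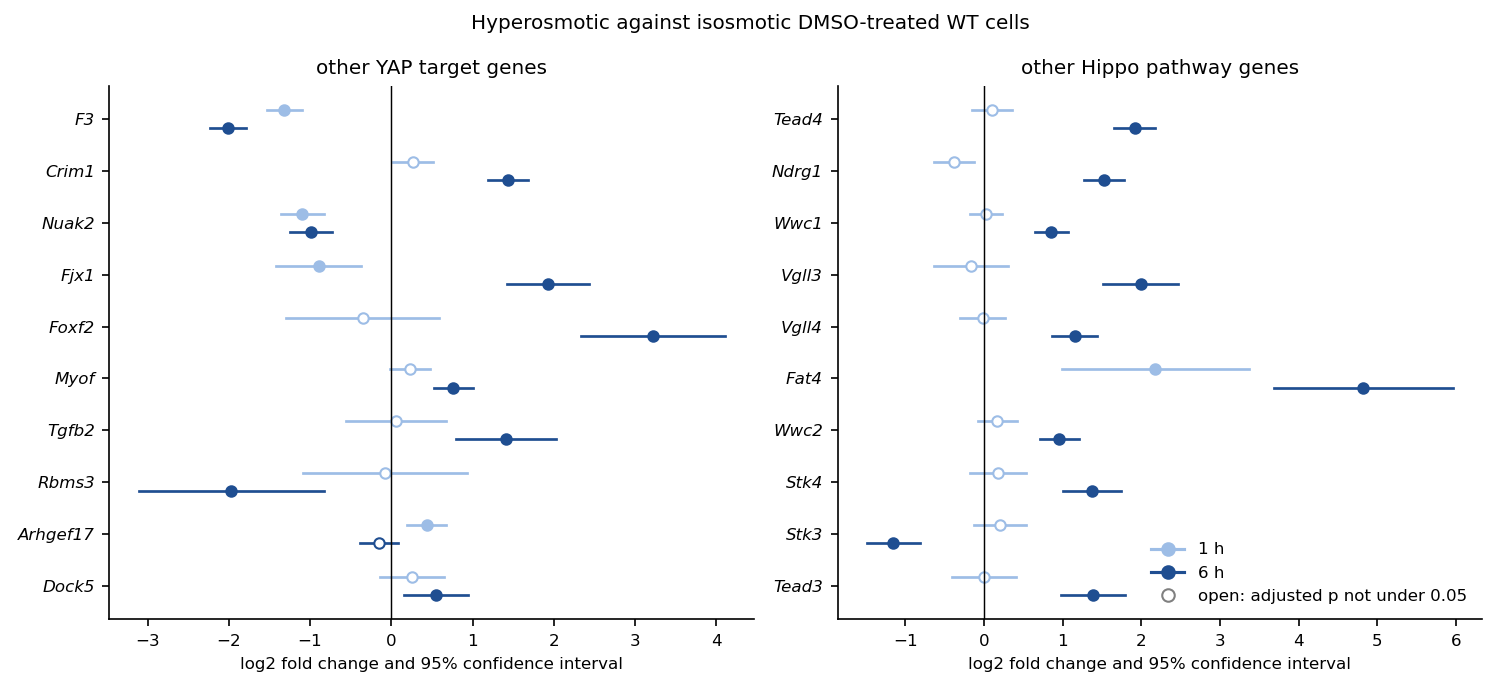
Log2 fold change (x axis) with 95% confidence interval (lines) of the 10 genes of each list with the smallest adjusted p (y axis) in DMSO-treated WT cells after 1 h (light blue) and 6 h (dark blue) of stress; open points missed the threshold. F3 and Nuak2 lay below 0 at both times, and 9 of the 10 other Hippo pathway genes lay above 0 at 6 h, with Stk3 below.

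The genes whose pattern over the 8 group means of log2 CPM was most like that of Ankrd1 were Mettl27 (Pearson r = 0.990), Tuft1 (0.986) and Mettl21a (0.986), among 12291 genes with a mean of at least 50 counts. For Ccn1 they were Sec22b (0.983), Dnttip1 (0.980) and Ncaph (0.976), and for Ccn2 they were Srp9 (0.959), Bud31 (0.958) and Riok2 (0.929). Among the members, Lats1 and Yap1 were the most alike (r = 0.955), followed by Lats2 and Ajuba (0.907) and by Amotl2 and Ajuba (0.903). Ankrd1 and Tead1 lay in opposite directions (r = -0.952), while Ccn1 and Ccn2 had r = 0.410. These values describe 8 points that share their libraries and normalization, and no p was computed.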

How the data were processed

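RNA from 16 libraries of mIMCD3 cells was sequenced. The deposited tables hold raw counts of reads per gene, which the authors made by alignment to mm10 and counting with featureCounts, with 1 table per library. The methods name Hisat2 as the aligner and the submitters' processing notes name Bowtie2, with versions and strand setting not given in the sources used here. The strand setting decides how reads of overlapping genes were split. Lines with a blank gene symbol were dropped: 2 lines of WT DMSO isosmotic replicate 1, and 3 lines of 1 isosmotic Nrf2-/- library. Of the counts from 1 to 10, 58.0% to 68.5% per library were even, and the sources used here do not say whether both mates of a read pair were counted. Groups came from the sample labels. One label field names primary tubular cells where all others name mIMCD3.

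Counts were filtered with filterByExpr, normalized by TMM and fitted with edgeR 4.0.16 (R 4.3.3) using 1 coefficient per group, the quasi-likelihood test and Benjamini-Hochberg adjustment over 19509 genes, for 12 simple comparisons and 3 interactions. CPM are TMM-normalized, except in the sums of cell type markers, which are scaled by total counts alone. CPM per kb divide by exonic length. Confidence intervals are 95% from the quasi-likelihood fit. Its p-values rest on the spread between the 2 libraries of each group, pooled over all 8 groups. The spread of the Nrf2-/- pair of 1 h thus enters every comparison. An exact permutation test of 2 against 2 cannot go below p = 0.333 and was not used. On simulated data for the comparison of 1 h with DMSO, 95 of 100 genes at an absolute log2 fold change of 1 and 100 of 100 at 2 were recovered, with 11 false calls among 17644 genes. The simulation drew every gene and library at the same dispersion and changed only genes above 1 CPM. The real groups differed in spread, so these rates do not carry over to the real data. Alternatives were RLE size factors, no filter, a replicate block, fits of the 12 WT libraries or of the libraries compared, DESeq2 1.42.0 and leaving out each library. Shares of all genes called are those of the edgeR fit above, also beside counts from an alternative. The deviations of same-numbered libraries correlated with r from -0.246 to 0.403 over 28 pairs of groups, and in 3 pairs r exceeded 0.1, so the numbers were not taken to pair the libraries. Replicate numbers follow the sample titles, and the tables of WT SFN isosmotic cells carry other numbers than their titles. Every member had at least 1274 counts in each library. The members and lists were chosen with earlier results of these data known. The text names all members, at most 10 genes of each other list, those with the smallest adjusted p among genes called in at least 1 of the DMSO comparisons of 1 h or 6 h with isosmotic cells, and the 3 genes most like each of Ankrd1, Ccn1 and Ccn2.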

Additional observations from a re-analysis of the deposited data

Results flagged for a closer look

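In 3 genes the stress response of WT cells differed between SFN and DMSO by a test of the interaction in edgeR's quasi-likelihood fit, with Benjamini-Hochberg adjustment. Ccn2 had an interaction of 1.65 on the log2 scale at 1 h (95% confidence interval 1.27 to 2.02) and 1.84 at 6 h (1.46 to 2.22). Ankrd1 had 0.85 at 1 h (0.48 to 1.22) and 0.86 at 6 h (0.49 to 1.23). Ccn1 had 1.02 at 6 h (0.61 to 1.44). In each case the stress against isosmotic fold change was more negative with DMSO, and both WT DMSO isosmotic libraries held the highest level of the gene in the series. Each interaction contains the isosmotic log2 fold change of SFN against DMSO, which was -1.49 for Ccn2, -0.72 for Ankrd1 and -0.72 for Ccn1. Under stress that fold change was 0.15, 0.13 and 0.01 at 1 h and 0.35, 0.14 and 0.30 at 6 h. None of these stressed values was called in the fit of all 16 libraries. With Ccn2 the call of the interaction held in every fit. With Ankrd1 it was lost at both times with a replicate block, and over 16 fits that each left out 1 library it was kept in 2 at 1 h and 4 at 6 h. With Ccn1 it was kept in 8 of those 16.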

How the results depend on the processing

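Of 48 differences called for the 10 genes, 38 were called under every alternative other than leaving out a library, 34 in every fit that left out 1 library, and 32 in all. With 12 WT libraries, the number of the 10 genes called was 4 for DMSO at 1 h against isosmotic cells, 2 for SFN at 1 h, 9 for SFN at 6 h, 1 for SFN against DMSO at 6 h and 4 for the interaction of SFN and 1 h stress. It was 3 for DMSO at 1 h with no filter and with only the libraries compared. With only the libraries compared it was 2 for SFN at 1 h, 2 for SFN against DMSO at 1 h, 2 for the same at 6 h and 1 for Nrf2-/- against WT cells at 1 h. DESeq2 called 2 for SFN at 1 h, 4 for the interaction of SFN and 1 h stress and 1 for the interaction of genotype and 1 h stress, and no filter gave 1 for SFN at 1 h. The cause was not tested. The shares of all genes called in these other fits are not given here. With the replicate block the interaction of SFN and 1 h stress had 1 call (Ccn2), that of SFN and 6 h stress 2, DMSO at 6 h 6, and Nrf2-/- against WT cells 5 without stress and 6 at 1 h; the other counts were the same.

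Leaving out 1 library in turn, where a lone sample is assumed to vary like the other groups, gave 2 to 4 calls for DMSO at 1 h, 6 to 10 at 6 h and 7 to 8 from 1 h to 6 h. For SFN these were 0 to 2, 5 to 8 and 6 to 8. SFN against DMSO gave 1 to 4 without stress and 0 to 0 at 1 h and at 6 h. Nrf2-/- against WT gave 2 to 8 without stress and 3 to 8 at 1 h, and 1 h of stress in Nrf2-/- cells 0 to 4. The interactions gave 1 to 4 for SFN at 1 h, 1 to 4 for SFN at 6 h and 0 to 4 for genotype. Among differences called in at least 1 fit that left out no single library, 1 changed sign, that of Tead1 between Nrf2-/- and WT cells at 1 h, which was -0.088 without Nrf2-/- SFN 1 h replicate 2 and 0.83 without replicate 1. Among 76 differences called under no alternative other than leaving out a library, 3 changed sign there and 30 when 1 library was left out, with no value among them above 0.18 in size on the log2 scale. Each of the 10 genes had at least 1274 counts per library.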

Other observations

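Among the other YAP target and Hippo pathway genes, Foxf2, Fat4, Fjx1, Rbms3 and Igfbp3 had few or no counts in the Nrf2-/- libraries. The share of all genes as low there is not given, so this is not read as a trait of the pathway. As a separate measure, 18.4% of all genes tested were called lower in isosmotic Nrf2-/- than WT cells, both with SFN. Foxf2 had 0 counts in all 4 Nrf2-/- libraries, beside means of 1.25 CPM in isosmotic WT cells with SFN and 1.18 CPM after 1 h. Fat4 had 0 counts in all 4 Nrf2-/- libraries, but was also low in WT cells with SFN. Its means there were 0.293 CPM in isosmotic cells and 0.192 CPM after 1 h. Fjx1 had 0 to 3 counts in the Nrf2-/- libraries and Rbms3 2 to 6. In isosmotic cells with SFN their means were 4.25 and 1.35 CPM in WT and 0.0687 and 0.112 CPM in Nrf2-/- cells. Igfbp3, named after its values were seen, had 0 counts in all 4 Nrf2-/- libraries and did not pass the filter on low counts. It was not tested, and its 0 counts are not read as a difference between the lines.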
